A study of Homo sapiens with 10 samples.

Results

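Aminoacyl-tRNA synthetases are the enzymes that join each amino acid to its transfer RNA (tRNA), the step that fixes the genetic code before the ribosome reads a message. Human cells keep separate nuclear genes for the enzymes of the cytosol and, usually with a 2 at the end of the symbol, for those imported into mitochondria, where they charge the tRNAs that translate the respiratory chain subunits of the mitochondrial genome. The heart depends on mitochondrial translation for its ATP, and inherited defects of several mitochondrial synthetases cause cardiomyopathy. Many cytosolic synthetase genes are also targets of ATF4, the transcription factor of the amino acid and integrated stress response.

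The 36 synthetase genes described here were taken by symbol from a list of cytosolic (20) and mitochondrial (16) members, out of 78932 gene identifiers in the count table. All 36 were found and all 36 passed the filter on low counts. The cells were cardiomyocytes made from the established embryonic stem cell line H1. On day 9 of differentiation beating cultures received 50 nM of a control GapmeR (labelled wild type) or of a GapmeR against the RNA CLIPPER (the knockdown), and RNA was taken 48 hours later. A GapmeR is an antisense oligonucleotide that directs RNase H to cut the RNA it pairs with. Each group had 5 libraries, made from total RNA with a stranded kit. The labels do not say whether the replicates were separate differentiations, so p-values measure the spread between these libraries, which may be technical. The series title links CLIPPER with LPIN1 and mitochondrial biogenesis. No gene in the annotation used, which named 61481 of the 78932 identifiers, carries the name CLIPPER, so the labels were not checked against the target.

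The libraries held 32879710 to 45052044 counts, and the lowest count of any synthetase gene in any library was 42. All 9 cardiomyocyte markers were detected, with a summed level of 26658 to 36471 CPM (the normalised counts-per-million scale) in control and 10623 to 17418 CPM in the knockdown libraries, and 8 of the 9 were lower in the knockdown. The 5 pluripotency markers summed to 0.203 to 1.08 CPM and 3.06 to 5.08 CPM. LIN28A (0.258 to 2.51 CPM) and DPPA4 (0.211 to 1.65 CPM) were the 2 of these that passed the filter and rose. Below the filter, POU5F1 went from a mean of 0.1 to 0.0838 CPM, NANOG from 0.0212 to 0.00863 CPM and SOX2 from 0.03 to 0.12 CPM. The 6 stromal markers summed to 1077 to 1162 and 830 to 980 CPM, 4 smooth muscle markers to 1144 to 2385 and 474 to 870 CPM, and 4 endothelial markers to 29.0 to 49.7 and 8.02 to 15.9 CPM. Most of the endothelial sum was KDR (mean 36.4 to 11.6 CPM), with TEK at 2.47 to 1.17 CPM and PECAM1 and CDH5 below the filter. The stromal genes went both ways, with COL3A1 lower (624 to 351 CPM) and DCN lower, COL1A2 (106 to 166 CPM) and THY1 (1.7 to 11.3 CPM) higher, and COL1A1 and PDGFRA not passing. The 5 endoderm and liver markers summed to 0.626 to 0.687 and 0.276 to 0.598 CPM, with TTR at 0 in the controls. The part of these marker changes in the results was not tested, and in bulk RNA fewer cells of a type and less RNA per cell cannot be told apart. Of the knockdown libraries, replicate 2 and then replicate 1 were closest to the controls in the first principal component, and the count and median of the synthetase genes are given below with and without them, as are the single genes that moved most.

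Most synthetase genes were lower after the knockdown. By edgeR's quasi-likelihood test (adjusted p below 0.05 over all 21033 genes tested), 23 of the 36 fell and 9 rose, while 4 did not pass, so that 32 of 36 were called where 79.7% of all tested genes were. Over all tested genes 39.6% were lower and 40.1% higher, and over 14777 protein-coding genes 47.0% were lower and 34.7% higher, against 63.9% and 25% of the synthetase genes. The median log2 fold change was -0.77 for the synthetase genes, -0.22 for protein-coding genes and 0.0056 for all tested genes. In 22 genes every knockdown library lay below every control library and in 8 every one lay above, which together is 30 of 36, where 67.5% of all tested genes had groups without overlap (33.8% lower and 33.7% higher). The fall was at least 2-fold in 13 genes, and MARS2 alone rose that much. The share of all tested genes with changes of that size was not counted, so these counts have no background beside them. Coding genes of about 37.6 kb in the genome, near the 37.4 kb median of the synthetase genes, had a lower quartile of log2 fold change of -0.951. That value does not stand for all members, which run from 3.03 to 568 kb. The lower quartile was 0.405 for coding genes of about 1.52 kb and -2.692 for those of about 688 kb. Of the cytosolic members 13 of 20 were lower and 4 higher (median -0.81), and of the mitochondrial members 10 of 16 were lower and 5 higher (median -0.73).

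**Figure D1:**
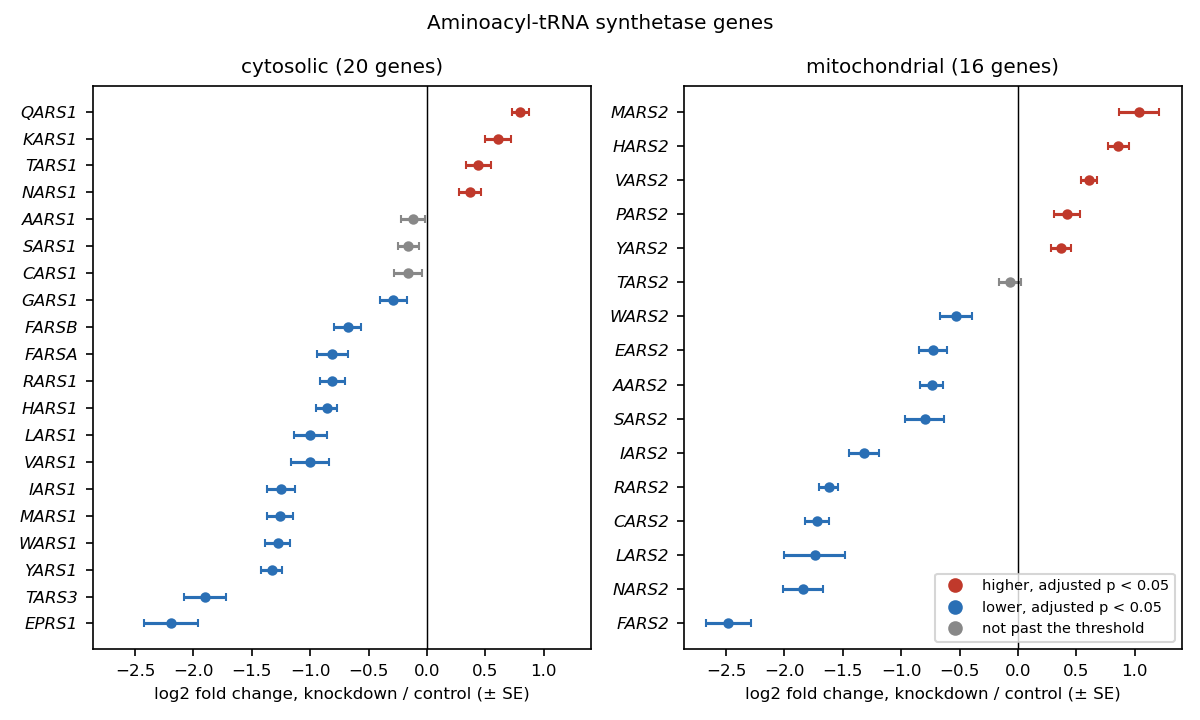
Log2 fold change (knockdown over control, bars ± SE of the edgeR fit) of the 20 cytosolic and 16 mitochondrial synthetase genes, 5 libraries a group. Red points rose, blue points fell and grey points did not pass the test; values run from -2.48 for FARS2 to 1.04 for MARS2.

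Summed over the 20 cytosolic genes, the level was 2718, 2674, 2393, 2727 and 2451 CPM in control replicates 1 to 5 and 1877, 2166, 2004, 2053 and 1951 CPM in knockdown replicates 1 to 5. For the 16 mitochondrial genes the sums were 569, 580, 557, 563 and 558 CPM in the control and 374, 425, 360, 348 and 360 CPM in the knockdown libraries. In both sums all knockdown libraries lay below all controls, and knockdown replicate 2 was the highest of its group. That replicate was also the knockdown library nearest to the control mean in 21 of the 23 genes that fell, and in 2 of the 9 that rose. The median log2 ratio of the 36 genes to their control means was -0.39 in knockdown replicate 2, -0.71 in replicate 1 and -0.88, -1.05 and -0.89 in replicates 3 to 5. Without knockdown replicates 1 and 2 the median log2 fold change of the 36 genes was -0.93, with 23 lower and 9 higher.

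Among the cytosolic enzymes, the 3 clearest falls were the tyrosyl, tryptophanyl and methionyl synthetases. YARS1 (ENSG00000134684, chromosome 1, 32775237 to 32818031, minus strand, GRCh38) charges tyrosine and was the most abundant synthetase gene of the control cells per kb of its canonical transcript, at 108 CPM per kb. Its level was 250, 233, 280, 270 and 286 CPM in control replicates 1 to 5 and 98.5, 115, 109, 95.5 and 106 CPM in knockdown replicates 1 to 5. The groups were far apart, and the fall was 2.52-fold (log2 fold change -1.33 ± 0.0915 SE, adjusted p = 1.2e-07, edgeR). Per kb it went from rank 1 to rank 7 among the 36 genes.

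WARS1 (ENSG00000140105, chromosome 14, 100333790 to 100376805, minus strand) charges tryptophan and is also known as an interferon-induced gene. It measured 93.5, 84.2, 77.7, 94.3 and 82.5 CPM in control replicates 1 to 5 and 27.1, 38.1, 38.5, 37.6 and 36 CPM in knockdown replicates 1 to 5. All knockdown values were under the lowest control, and replicate 1 was the lowest of them. The log2 fold change was -1.28 ± 0.108 (SE, adjusted p = 4.9e-07, edgeR). MARS1 (ENSG00000166986, chromosome 12, 57475445 to 57517569, plus strand), the methionyl enzyme that also charges the initiator tRNA, had 172, 174, 141, 180 and 151 CPM in the control and 55.2, 78.9, 67.4, 70.0 and 69.9 CPM in the knockdown libraries. It was 2.39-fold lower, again without overlap (log2 fold change -1.26 ± 0.109 SE, adjusted p = 6e-07, edgeR). MARS1 shares exon bases with DDIT3 on the other strand, which rose (log2 fold change 1.33 ± 0.280 SE), and with ARHGAP9.

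The 3 clearest rises in the cytosolic set were the glutaminyl, lysyl and threonyl enzymes. QARS1 (ENSG00000172053, chromosome 3, 49095932 to 49105130, minus strand) charges glutamine. Its levels were 187, 188, 185, 179 and 174 CPM in the control and 329, 314, 311, 322 and 313 CPM in knockdown replicates 1 to 5. The libraries of each group lay close together and the rise was 1.74-fold (log2 fold change 0.80 ± 0.0750 SE, adjusted p = 1e-06, edgeR). At 130 CPM per kb QARS1 ranked first among the synthetase genes of the knockdown cells.

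KARS1 (ENSG00000065427, chromosome 16, 75627474 to 75648643, minus strand) supplies lysyl-tRNA synthetase to cytosol and mitochondria from a single gene. Levels were 136, 127, 131, 125 and 121 CPM in the control and 168, 156, 208, 234 and 209 CPM in knockdown replicates 1 to 5, with replicates 1 and 2 nearest to the controls (log2 fold change 0.61 ± 0.114 SE, adjusted p = 3.2e-04, edgeR, and 0.75 without those replicates). TARS1 (ENSG00000113407, chromosome 5, 33440696 to 33468091, plus strand), the main cytosolic threonyl enzyme, had 148, 155, 116, 146 and 119 CPM in the control and 165, 185, 193, 211 and 178 CPM in the knockdown libraries. Its groups stood closer to each other than those of QARS1 but did not overlap (1.36-fold, log2 fold change 0.44 ± 0.108 SE, adjusted p = 0.00222, edgeR). NARS1, the asparaginyl enzyme, rose 1.29-fold, from 212 ± 20.4 to 274 ± 16.7 CPM (SD, n = 5).

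TARS3, a cytosolic relative of TARS1, went the other way and was 3.74-fold lower, from 53.2 ± 5.58 to 14.2 ± 4.64 CPM (SD, n = 5). EPRS1, which carries the glutamyl and prolyl activities on a single polypeptide, had the lowest log2 fold change of the cytosolic set, -2.19 ± 0.232 (SE). Its levels were 182, 184, 159, 192 and 171 CPM in the control and 32.5, 69.9, 32.0, 26.1 and 34.4 CPM in knockdown replicates 1 to 5, so that replicate 2 stood above the other knockdown libraries and still well below the controls. Without that replicate the value was -2.52. The branched-chain enzymes fell together with EPRS1: IARS1 for isoleucine by 1.25, LARS1 for leucine by 1.0 and VARS1 for valine by 1.0 on the log2 scale. RARS1 for arginine and HARS1 for histidine fell by 0.81 and 0.86. AARS1 (alanine, log2 fold change -0.12), SARS1 (serine, -0.16) and CARS1 (cysteine, -0.16) did not pass the test. GARS1, which serves glycine in both compartments, had a log2 fold change of -0.29 with an adjusted p of 0.0369 by edgeR, and 12 of 20 other settings ended that call (adjusted p from 0.0114 to 0.525).

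FARSA and FARSB encode the catalytic and the other subunit of the cytosolic phenylalanyl enzyme, which works as a tetramer with equal numbers of both. FARSA had 62.7, 65.0, 56.5, 58.1 and 61.4 CPM in the control and 37.1, 47.4, 31.3, 27.7 and 30 CPM in knockdown replicates 1 to 5. FARSB had 39.8, 41.1, 33.7, 39.6 and 37.3 CPM in the control and 23.2, 31.5, 22.3, 21.7 and 21.0 CPM in the knockdown libraries. Both fell, without overlap and with replicate 2 the highest knockdown library in each. The log2 fold change was -0.81 ± 0.134 for FARSA and -0.68 ± 0.116 for FARSB (SE). The ratio of FARSA to FARSB counts was 1.47 to 1.68 in control and 1.28 to 1.6 in knockdown libraries, and these ranges overlapped. FARSA spans 11.6 kb and FARSB 89.2 kb.

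A set of 7 cytosolic genes encodes enzymes of the multisynthetase complex, the particle that holds several synthetases on 3 scaffold proteins. Of these, EPRS1, IARS1, LARS1, MARS1 and RARS1 fell and KARS1 and QARS1 rose, and their median log2 fold change was -1.0. Of the scaffold genes, AIMP2 rose by 0.97 ± 0.119 and AIMP1 by 0.39 ± 0.0747 (SE) on the log2 scale, while EEF1E1 fell by 0.51 ± 0.154, a call that upper-quartile scaling ended (-0.32, adjusted p = 0.0512, against 2.1e-04 to 0.0512 over the settings tried). AIMP2 shares exon bases with EIF2AK1, AIMP1 with TBCK, and EEF1E1 with a read-through gene. Synthetases also fall into a pair of structural classes with unrelated catalytic folds. Class I had 14 of 19 genes lower and 4 higher (median -1.0), and class II 9 of 17 lower and 5 higher (median -0.29). These are 73.7% and 52.9% lower, where 47.0% of coding genes were, and the difference between the classes was not tested. EPRS1, whose glutamyl part is of class I and whose prolyl part is of class II, was counted with class I. The median gene span was 43.0 kb in class I and 21.6 kb in class II.

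**Figure D2:**
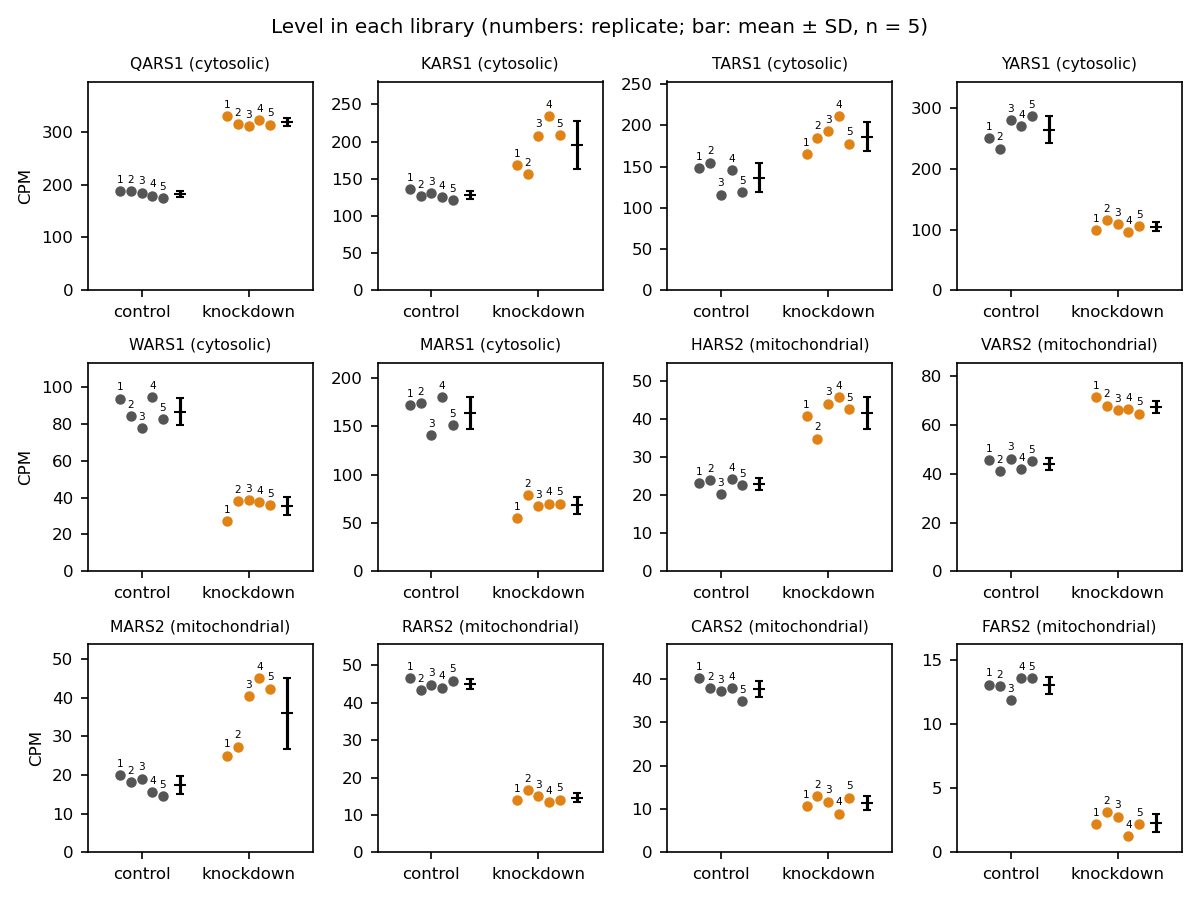
Normalised CPM of 12 synthetase genes in each library, namely 3 rising and 3 falling genes of each compartment, taken by p; numbers beside the points are replicates and the bar is the mean ± SD (n = 5). No knockdown point overlaps the controls in any panel, and MARS2, KARS1 and HARS2 have knockdown replicates 1 and 2 nearest to the controls.

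Among the mitochondrial enzymes the 3 clearest falls were RARS2, CARS2 and FARS2. RARS2 (ENSG00000146282, chromosome 6, 87513459 to 87590028, minus strand), the arginyl enzyme, measured 46.5, 43.3, 44.8, 44 and 45.9 CPM in the control and 14.0, 16.6, 15.0, 13.5 and 14.1 CPM in knockdown replicates 1 to 5. The values were tight in both groups, and the fall was 3.06-fold (log2 fold change -1.62 ± 0.0806 SE, adjusted p = 2e-08, edgeR). CARS2 (ENSG00000134905, chromosome 13, 110641412 to 110713603, minus strand), the cysteinyl enzyme, had 40.1, 37.9, 37.1, 37.8 and 34.9 CPM in the control and 10.7, 12.9, 11.7, 8.96 and 12.6 CPM in the knockdown libraries, which was 3.30-fold lower (log2 fold change -1.72 ± 0.105 SE, adjusted p = 6.1e-08, edgeR).

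FARS2 (ENSG00000145982, chromosome 6, 5261044 to 5829192, plus strand), a single-chain phenylalanyl enzyme, is the longest of the 36 genes at 568 kb. It had 13.1, 13.0, 11.9, 13.6 and 13.6 CPM in the control and 2.22, 3.14, 2.78, 1.27 and 2.20 CPM in knockdown replicates 1 to 5. No other synthetase gene had a lower log2 fold change than its -2.48 ± 0.190 (SE, 5.58-fold, adjusted p = 2.6e-07, edgeR). The other large falls were NARS2 for asparagine (3.58-fold), LARS2 for leucine (3.35-fold, log2 fold change -1.74, or -2.26 without knockdown replicates 1 and 2) and IARS2 for isoleucine (2.50-fold). IARS2 was the most abundant mitochondrial synthetase gene in either group, at 50 CPM per kb in control and 20 CPM per kb in knockdown libraries. Smaller falls were seen for SARS2 (1.74-fold), AARS2 (1.67-fold), EARS2 (1.65-fold) and WARS2 (1.45-fold).

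The 3 clearest rises of the mitochondrial set were HARS2, VARS2 and MARS2. HARS2 (ENSG00000112855, chromosome 5, 140691430 to 140699305, plus strand), the histidyl enzyme, had 23.3, 24.0, 20.3, 24.3 and 22.7 CPM in the control and 40.8, 34.9, 44.1, 45.8 and 42.6 CPM in knockdown replicates 1 to 5 (1.82-fold, log2 fold change 0.86 ± 0.0922 SE, adjusted p = 3.1e-06, edgeR). VARS2 (ENSG00000137411, chromosome 6, 30914205 to 30926459, plus strand), the valyl enzyme, had 45.6, 41.1, 46.3, 41.9 and 45.3 CPM in the control and 71.4, 68.0, 66.2, 66.5 and 64.7 CPM in the knockdown libraries (1.53-fold, log2 fold change 0.61 ± 0.0707 SE, adjusted p = 5.5e-06, edgeR). In both genes every knockdown library lay above every control.

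MARS2 (ENSG00000247626, chromosome 2, 197705369 to 197708395, plus strand) encodes the methionyl enzyme of mitochondria in 1 exon. Its values were 19.9, 18.2, 19.1, 15.5 and 14.6 CPM in the control and 25, 27.3, 40.4, 45.0 and 42.3 CPM in knockdown replicates 1 to 5. Knockdown replicates 1 and 2 stood just above the controls and replicates 3 to 5 well above them (log2 fold change 1.04 ± 0.171 SE, adjusted p = 1.1e-04, edgeR, and 1.27 without replicates 1 and 2). PARS2 for proline rose 1.33-fold and YARS2 for tyrosine 1.29-fold. The groups of PARS2 overlapped, with 8.13 to 9.93 CPM in the control and 9.91 to 14.0 CPM in the knockdown libraries.

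TARS2, the mitochondrial threonyl enzyme, had the smallest change of all 36 genes. It measured 34.0, 33.2, 31.0, 35.6 and 30.5 CPM in the control and 33.5, 36.9, 30.7, 27.8 and 27.9 CPM in knockdown replicates 1 to 5. The groups overlapped (log2 fold change -0.07 ± 0.0961 SE, adjusted p = 0.535, edgeR). Without knockdown replicates 1 and 2 it was lower, at -0.20 (adjusted p = 0.0211, edgeR; 0.0211 to 0.882 over the settings tried).

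Set side by side, cytosolic and mitochondrial genes for the same amino acid made 17 pairs, in which EPRS1 and FARS2 each appear more than once. In 7 pairs both genes fell, in 5 the cytosolic gene fell while the mitochondrial gene rose, and in 1 the reverse held. The 7 include FARSA and FARSB, both set beside FARS2. Singly, 65% of the cytosolic and 62.5% of the mitochondrial members were lower, and 20% and 31.2% were higher. Of protein-coding genes 47.0% were lower and 34.7% higher. Whether partners moved together more often than these shares give was not tested. Wherever partners went opposite ways, the gene that rose had the shorter span. Examples are MARS2 (3.03 kb) beside MARS1 (42.1 kb) and NARS1 (21.6 kb) beside NARS2 (140 kb). The part of span in these contrasts was not tested. For isoleucine the changes were alike, -1.25 for IARS1 and -1.32 for IARS2. For methionine they went apart, -1.26 for MARS1 and 1.04 for MARS2. The log2 ratio of MARS1 to MARS2 counts was 2.88 to 3.54 in control and 0.64 to 1.53 in knockdown libraries. For valine the ratio of VARS1 to VARS2 changed sign, from 0.57 to 1.07 in control to between -1.12 and -0.21 in knockdown libraries. The asparagine pair was the 1 case in the other direction, with 0.37 for NARS1 and -1.84 for NARS2 (log2 ratio 3.15 to 3.31 in control and 4.99 to 5.89 in knockdown libraries). For cysteine CARS2 fell by 1.72 while CARS1 did not pass the test. The difference between partners was described over these ratios and not tested.

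**Figure D3:**
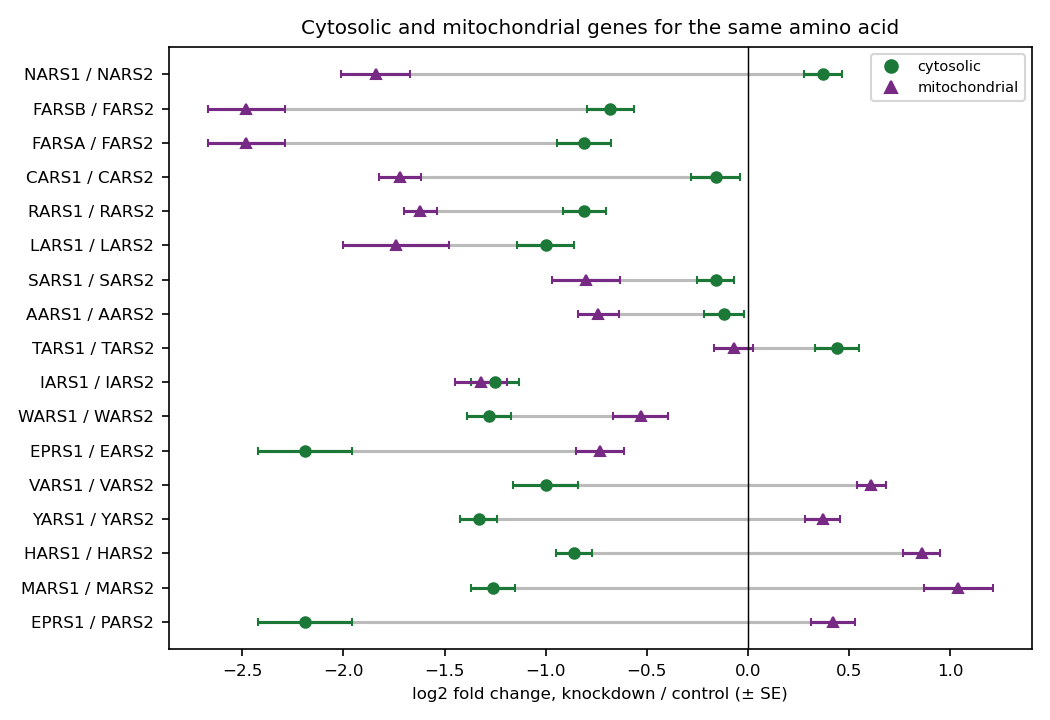
Log2 fold change (± SE of the edgeR fit, 5 libraries a group) of the cytosolic (circles) and mitochondrial (triangles) gene for each amino acid, joined by a line and ordered by their difference. The differences of cytosolic minus mitochondrial gene run from -2.60 for EPRS1 and PARS2 to 2.21 for NARS1 and NARS2.

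Both histidyl genes start from the same stretch of chromosome 5 and run in opposite directions. HARS1 was 1.82-fold lower (88.9, 80.6, 81.9, 81.2 and 75.1 CPM in the control and 45.2, 51.2, 47.0, 38.7 and 42.4 CPM in knockdown replicates 1 to 5), while HARS2, as given above, was 1.82-fold higher. The log2 ratio of HARS1 to HARS2 counts was 1.72 to 2.01 in control and -0.24 to 0.55 in knockdown libraries. The 84 bases between the RefSeq starts of HARS1 and HARS2 (GRCh38.p14) are shown because they separate a falling from a rising gene. They are printed on the plus strand, the strand of HARS2, with each match to CCGGAAGT, the core letters bound by ETS factors, in capitals on either strand.
HARS1-HARS2, chr5:140691371-140691454: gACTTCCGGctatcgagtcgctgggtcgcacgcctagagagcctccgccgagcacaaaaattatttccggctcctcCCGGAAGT
The match at the HARS1 end reads on the minus strand, that of HARS1, and the match at the HARS2 end on the plus strand, that of HARS2. It was found on either strand in the promoter window (250 bases before to 50 after a start) of 8 of the 30 synthetase genes with a RefSeq promoter entry, against 4.14% of all 35116 promoters and 4.95% of all 27305 genes. Of the genes with the match, NARS1, TARS1, HARS2 and PARS2 rose, HARS1, WARS1 and EARS2 fell, and CARS1 did not pass the test. HARS1 and HARS2 are both counted, though their windows share the stretch printed above. HARS1 spans 18.5 kb and HARS2 7.88 kb. Exons of HARS1 and HARS2 overlap on opposite strands in the annotation. HARS1 also overlaps DND1 on its own strand and WDR55 on the other, and HARS2 overlaps ZMAT2 on its own strand. The strand setting of the counting was not stated, so the counts of both histidyl genes are uncertain.

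Gene span, which is the length of a gene in the genome with its introns, moved with these changes, as it does across the transcriptome of these libraries. Over the 36 genes the rank correlation of the log2 fold change with span was -0.707, given as a description, since the genes share the same 10 libraries. All 4 members of up to 10 kb (QARS1, HARS2, MARS2 and PARS2) rose, where 66.5% of 2796 coding genes of that span were higher. All 11 members over 60 kb fell. For coding genes of 60 to 100 kb 66.6% were lower, and for those of 100 to 1000 kb 85.0% were. No gene that rose was longer than 28.4 kb.

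In the span class of 10 to 20 kb 5 of the 6 synthetase genes fell (FARSA, VARS1, HARS1, AARS2 and SARS2) and VARS2 rose, the median being -0.81. Of 2400 coding genes in that class 24.5% were lower and 54.7% higher, with a median of 0.42. In the next class, 20 to 30 kb, 4 of 6 synthetase genes rose and 0 fell (median 0.37), where 40.7% of coding genes were higher (median 0.07). The log2 fold change of each member was also set beside the median of the 500 tested coding genes nearest to it in span. It was lower than that median for 23 genes and higher for 13, with a median difference of -0.40. The difference was -1.50 for EPRS1, -1.32 for FARSA, -1.31 for VARS1 and -1.27 for TARS3. It was 0.49 for WARS2 and TARS1, 0.46 for KARS1 and -0.36 for FARS2, whose neighbours had a median of -2.12. The part of gene span in the change of a single gene was not tested.

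**Figure D4:**
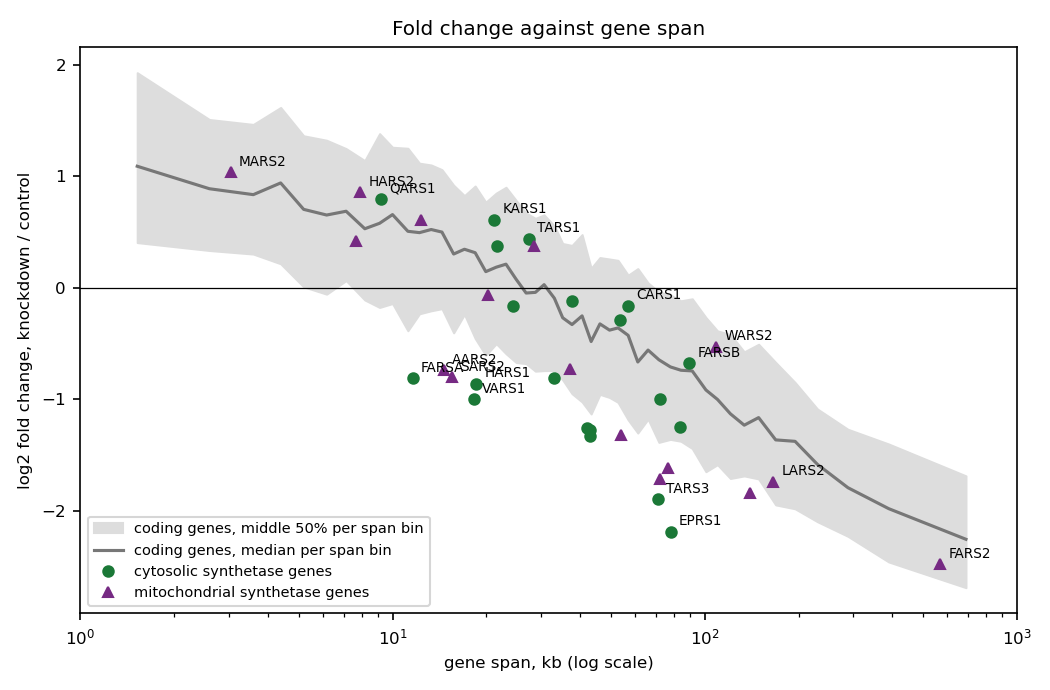
Log2 fold change against gene span (kb, log scale) of the 20 cytosolic (circles) and 16 mitochondrial (triangles) synthetase genes; the grey line and band are the median and the middle 50% of all tested coding genes in 50 span bins. FARSA, VARS1, HARS1, AARS2 and SARS2, at 11.6 to 18.5 kb, lie below the band. So do longer genes, among them MARS1 and YARS1 (42.1 and 42.8 kb) and TARS3, CARS2, RARS2 and EPRS1 (70.9 to 77.9 kb). No synthetase gene lies above the band.

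ATF4 binds with a C/EBP partner at a composite element with the core TGATGNAA, which lies in the promoters of several synthetase genes, and 13 cytosolic members are commonly counted among its targets. Of these 13, 8 fell, 2 rose and 3 did not pass, and the median was -1.0. The share lower was 61.5%, against 63.9% of all 36 synthetase genes and 47.0% of coding genes. The core was searched on both strands in the RefSeq promoter windows. It was found in 8 of 30 synthetase genes with an entry (26.7%), against 4.46% of 27305 genes and 3.62% of 35116 promoters. The narrower form TGATGCAA, which is contained in the first, was found in AARS1, CARS1, IARS1, MARS1, NARS1 and TARS1, which is 20% of the 30, against 1.08% of genes. LARS1, TARS3, VARS1, YARS1, AARS2 and VARS2 had no entry. The windows below show the 8 matches because these genes differ in their response. Each is printed on the strand of its gene, 5′ to 3′, with 10 bases on either side and the motif, or its reverse complement, in capitals.
AARS1, chr16:70289676-70289703: tttctcgcagTTGCATCAgccaagttag
CARS1, chr11:3057408-3057435: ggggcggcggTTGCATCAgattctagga
GARS1, chr7:30594835-30594862: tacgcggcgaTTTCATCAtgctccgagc
IARS1, chr9:92293693-92293720: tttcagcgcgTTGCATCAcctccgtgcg
MARS1, chr12:57488054-57488081: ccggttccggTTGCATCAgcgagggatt
NARS1, chr18:57621805-57621832: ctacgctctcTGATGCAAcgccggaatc
TARS1, chr5:33440957-33440984: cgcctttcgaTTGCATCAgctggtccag
YARS2, chr12:32756077-32756104: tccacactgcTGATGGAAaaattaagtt
The match lies on the reverse strand in 6 of these genes and on the gene's own strand in NARS1 and YARS2. Among the 6 genes with TGATGCAA, TARS1 and NARS1 rose, IARS1 and MARS1 fell, and AARS1 and CARS1 did not pass the test. Their log2 fold changes had a median of -0.14 and a range of -1.26 to 0.44. The other 10 cytosolic genes with an entry had a median of -0.74 and a range of -2.19 to 0.80, with 7 lower and 2 higher. Beside their neighbours in span the medians were 0.21 for the 6 and -0.49 for the 10. These are letters in a window and values of few genes, with no test between the sets.

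Of 27 genes of the ATF4 axis 11 rose (40.7%) and 9 fell (33.3%), the median being 0.30, where 40.1% of all tested genes were higher and 39.6% lower, so the share higher was near the background. ATF4 itself went from 189 ± 21.7 to 247 ± 66.4 CPM (SD, n = 5), a log2 fold change of 0.39 that did not pass (adjusted p = 0.0535, edgeR). It passed under 7 of 20 other settings, among them 0.49 without knockdown replicate 1 and 0.47 without replicate 2 (adjusted p from 3.9e-05 to 0.135 over all settings). PSAT1, a serine synthesis enzyme, rose by 1.34 ± 0.109 (SE), and SLC3A2, the heavy chain of amino acid exchangers, by 1.87 ± 0.240 (2.20 without knockdown replicates 1 and 2). SLC7A11, the cystine exchanger, fell by 1.56 ± 0.121, and EIF2AK3, the kinase PERK, by 1.65 ± 0.161.

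Other genes that make, mend or deliver tRNA were described from lists chosen for this purpose. Of 20 genes of tRNA processing and export 13 rose and 6 fell (65% and 30%), where 40.1% of all tested genes were higher and 39.6% lower, and 34.7% and 47.0% of coding genes. Their median log2 fold change was 0.70 and their median span 22.4 kb. TRNT1, which adds the CCA end to which the amino acid is joined, went from 22.8 ± 0.707 to 44.1 ± 2.25 CPM (SD, n = 5), a rise of 0.95 ± 0.0713 (SE) on the log2 scale. SSB, the La protein that binds new RNA polymerase III transcripts, rose by 1.36 ± 0.114. PRORP, the nuclease of mitochondrial RNase P, fell by 1.89 ± 0.199 (log2 fold change -2.32 without knockdown replicates 1 and 2), and RTCB, the ligase of tRNA splicing, by 0.84 ± 0.0981. Of 6 tested editing and recycling genes 4 rose, including PTRHD1 (1.69) and MTRFR (1.12), a mitochondrial rescue factor, and 1 fell, DTD1 (-1.49), a D-aminoacyl-tRNA deacylase.

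In mitochondria glutaminyl-tRNA is made by the amidotransferase GatCAB rather than by a synthetase of its own. Its subunit genes split: GATC rose by 0.97 ± 0.0825 (SE), while QRSL1 and GATB had log2 fold changes of -0.48 and -0.24, the latter not passing with upper-quartile scaling (-0.05, adjusted p = 0.546, against 0.00121 to 0.546 over the settings tried). MTFMT, which formylates the initiator methionyl-tRNA made by MARS2, fell by 1.13 ± 0.116, from 12.0 ± 0.496 to 5.45 ± 0.860 CPM (SD, n = 5). PTCD1 shares exon bases with ATP5MF and a read-through gene on its own strand and with BUD31 on the other, so its counts are uncertain. It had 17.6 to 26.9 CPM in control libraries, 31.3 and 20.5 CPM in knockdown replicates 1 and 2, and 88, 96.3 and 77.3 CPM in replicates 3 to 5. The groups overlapped, and its log2 fold change was 1.5 ± 0.363 (SE) with all libraries and 1.97 without replicates 1 and 2. In the selenocysteine route SECISBP2 rose by 0.67 and EEFSEC, its elongation factor, fell by 1.93, and 2 genes did not pass. All 22 mitochondrial tRNA genes are listed at 0 in all libraries, so the substrates of the mitochondrial enzymes were not analysed here.

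**Figure D5:**
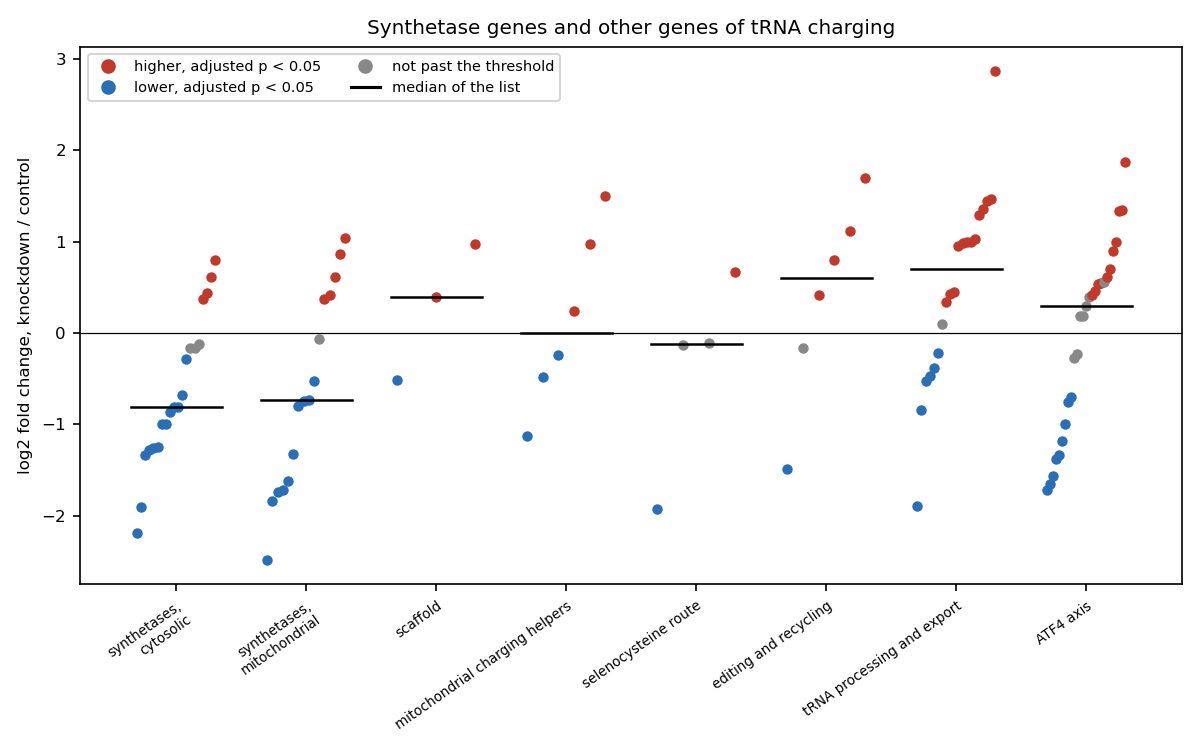
Log2 fold change of the synthetase genes and of 6 lists of other genes of tRNA charging and the ATF4 axis, each point a tested gene, with the median of each list as a bar. Medians lie at -0.81 and -0.73 for the cytosolic and mitochondrial synthetases and at 0.70 for tRNA processing and export.

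Of the 36 genes, 11 share exon bases with another protein-coding gene on either strand. Besides the histidyl pair and MARS1 these are AARS1, KARS1, WARS1, YARS1, AARS2, CARS2, EARS2 and SARS2, and counts there are uncertain. Among the other genes named, exons of EEFSEC, TRNT1, SSB, PRORP, PTRHD1, MTRFR, DTD1 and GATC also overlap those of another gene, with the same limit.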

How the data were processed

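Total RNA of 10 libraries was sequenced. The authors deposited a table of raw read counts, not normalised, by gene. Reads were trimmed with Trim Galore 0.65, aligned to GRCh38 with STAR 2.7.0 and GENCODE release 38, and counted with HTSeq, per the design text and the submitters' processing notes. The kit marks strand, per the design text. HTSeq's version and whether it used strand: not given in the sources used here. Groups and replicate numbers came from the titles, and 0 columns were left unmapped. Names, spans and overlaps were taken by identifier from GENCODE release 44 (61481 of 78932 matched) and promoters from RefSeq (30 of 36 synthetase genes matched). The count table holds identifiers newer than release 38, so the release used for the counting is uncertain.

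Normalisation was by trimmed means of M-values, and edgeR 4.0.16 in R 4.3.3 gave the quasi-likelihood test (filterByExpr, robust dispersions, Benjamini-Hochberg over 21033 genes, threshold 0.05). SE is the log2 fold change over the square root of F. A fold change is set against the other genes, not per cell. Alternatives used limma 3.58.1 and DESeq2 1.42.0. The test was run on simulated data in which 67, 67 and 66 of 20639 genes changed by 1.5-, 2- and 4-fold. It recovered 44.8%, 80.6% and 97% of these, and 8 of 156 calls were false. In the real libraries 79.7% of tested genes were called, so the simulation does not check scaling or error where most genes move. Every pair of libraries in a group differed by more than counting error (chi-square over its degrees of freedom at least 4.45). Replicate numbers were not taken as pairs. The labels do not say whether same-numbered libraries shared a culture or day, and their weak correlations cannot settle it. The libraries held 32879710 to 45052044 counts, and the biological coefficient of variation was 19.2%.

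Members and lists were chosen with earlier results of these data known. Values in every library are given for the 3 rising and 3 falling genes of each compartment with the smallest p, FARSA, FARSB and the smallest change, and from each pathway list up to 2 rising and 2 falling genes are named. EPRS1, HARS1, DDIT3, QRSL1 and the span examples were added after their values were seen. Some genes of the pathway lists are not reported here.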

Additional observations from a re-analysis of the deposited data

Results flagged for a closer look

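A total of 5 values stood apart from the other 4 libraries of their group by more than 0.71 of the group's range, out of 72 groups examined. Chance flags about 1 in 20 groups. Of these, 4 came from knockdown replicate 2, where EPRS1 had 69.9 CPM (the next highest 34.4), FARSB 31.5 CPM (23.2), IARS1 121 CPM (91.3) and TARS3 22.4 CPM (13.1). All 4 genes fell in the knockdown, and in each this library was the nearest to the controls. The fifth was WARS1 in knockdown replicate 1, at 27.1 CPM against 36 CPM for the next lowest.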

How the results depend on the processing

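Over 20 alternatives (the tests of limma-voom and DESeq2, scaling by upper quartiles or by DESeq2's size factors, a filter of 1 count or of 1 CPM on the mean, dispersions fitted without robustness, removal of the mitochondrial genome's genes, the replicate block, each library left out, and knockdown replicates 1 and 2 left out together) 9 synthetase genes were called higher in each and 22 to 24 lower. The median log2 fold change was -0.93 to -0.58. Groups without overlap numbered 29 to 32 over the 18 alternatives that give library values (DESeq2 and limma-voom were not counted for it). Upper-quartile scaling shifted all genes by 0.20 and gave -0.58 as the median. Of 720 values of single synthetase genes, 706 kept their side of the threshold, 12 for GARS1 lost it, and SARS1 (-0.22 without control replicate 5, adjusted p = 0.0492, edgeR, 0.0492 to 0.73 over the alternatives) and TARS2 gained it. Leaving out a library moved no called synthetase gene by more than 1.29-fold, the most being LARS2 (-2.11 without knockdown replicate 2). With the replicate block 9 genes were higher and 22 lower (median -0.79), the call of GARS1 being lost (adjusted p = 0.0565, edgeR). Same-numbered libraries correlated between -0.293 and 0.289, so the numbers were not taken as pairs. With merged exon length in place of span the median difference from neighbours was -0.28 in place of -0.40. AARS1, CARS1, SARS1 and TARS2, which were not called, turned positive under upper-quartile scaling (0.08, 0.04, 0.04 and 0.13). The lowest count of a synthetase gene in a library was 42, in FARS2.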
